A study of Mus musculus with 22 samples.

Results

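Photoreceptor transcripts were followed in RNA of microglia, the resident macrophages of the retina, which do not belong to the photoreceptor lineage. The set was chosen by name and holds 31 of the 35596 genes measured: 13 genes of rods, 11 genes that rods and cones both use and 7 genes of cones. All 31 had reads in some library, and 30 passed the filter on low counts; the cone gene Pde6c did not. Of the names, 5 (Gnb1, Reep6, Rom1, Unc119 and Gngt2) also stand for genes that many other cells use, so sums are given with and without them.

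The study profiled sorted retinal microglia by bulk RNA-seq to describe their expression in models of glaucoma and in different genetic backgrounds. The libraries used here came from 12-week-old mice in 4 groups: Apoe-/- phagocytic (n = 6) and Apoe-/- non-phagocytic (n = 6) from mice without Apoe, the gene of the lipid carrier apolipoprotein E, and WT phagocytic (n = 5) and WT non-phagocytic (n = 5) from wild-type mice. All carried the strain label C57BL/6, and every mouse in every group had apoptotic neurons injected into the vitreous, so no group without injected cells is among them. The sort took CD11b+ Fcrls+ Ly6c- cells, and their Alexa488 signal divided phagocytic from non-phagocytic cells, per the labels' protocols. A library pooled 5 to 6 retinas of 1 sex and genotype, with 100 to 500 cells collected for the phagocytic sort. The knockout allele and the sex of each pool are not stated in the labels. Pools are called by the number in the label. The labels do not say that a phagocytic and a non-phagocytic library with the same number share animals, nor that pools are separate experiments, so p-values measure the spread between these libraries only.

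Rods and cones turn light into a fall of cyclic GMP. A light-activated opsin switches on the G protein transducin, transducin switches on the phosphodiesterase PDE6, and the drop of cyclic GMP closes a cation channel of the outer segment, while arrestin and calcium-sensing proteins turn the cascade off. Rods and cones carry separate gene copies for most of these steps, and the factors Crx, Nrl and Nr2e3 set which copies are read. Rods are the most numerous neurons of the mouse retina, and shed tips of their outer segments are taken up by the pigment epithelium.

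The libraries held 1131045 to 3643499 reads, of which 9.14% to 51.7% fell on 12 predicted genes made of satellite repeats. That share averaged 25.0% ± 8.83 in Apoe-/- phagocytic, 29.9% ± 15.5 in Apoe-/- non-phagocytic, 17.2% ± 4.17 in WT phagocytic and 20.4% ± 9.95 in WT non-phagocytic libraries (SD, n = 6, 6, 5 and 5). Apoe itself was at 7.02 to 34.9 CPM in the Apoe-/- libraries and at 869 to 5145 CPM in the WT libraries, so the groups did not overlap for the deleted gene. CPM are counts divided by TMM-normalised library sizes. All 12 genes of a list of microglial markers were detected, with a summed level of 7402 to 25148 CPM per library. A count of 0 reads in a library allows a level of up to 3 reads, which is 0.826 to 2.70 CPM depending on depth, and intervals and floors cover counting error only because reads from PCR copies carry no molecular identifiers and need not come from separate molecules.

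The 31 genes took 0.187% to 0.985% of a library's reads outside the satellite-like genes. Without the 5 widely used genes the share was 0.745% (95% Wilson interval 0.735% to 0.755%) in Apoe-/- phagocytic pool 1, the highest library, and 0.123% (0.118% to 0.128%) in WT phagocytic pool 3, the lowest. Gnat1 alone ranked 38th among all genes by CPM in the first of these libraries and 369th in the second. By TPM, which takes transcript length into account, it ranked 94th and 329th. Between 27 and 31 of the genes had reads in a library. Rod genes summed to 3266 ± 1476 CPM in Apoe-/- phagocytic, 2886 ± 850 CPM in Apoe-/- non-phagocytic, 2089.9 ± 1011 CPM in WT phagocytic and 1975 ± 1222 CPM in WT non-phagocytic libraries (mean ± SD, n = 6, 6, 5 and 5). Genes shared by rods and cones summed to 1212 ± 626 CPM in Apoe-/- phagocytic, 1027 ± 314 CPM in Apoe-/- non-phagocytic, 838 ± 567 CPM in WT phagocytic and 715 ± 564 CPM in WT non-phagocytic libraries. The 6 cone genes other than Gngt2 summed to 25.5 ± 18.8 CPM in Apoe-/- phagocytic, 68.8 ± 73.2 CPM in Apoe-/- non-phagocytic, 43.4 ± 57.1 CPM in WT phagocytic and 55.5 ± 76.2 CPM in WT non-phagocytic libraries. With Gngt2 the cone genes summed to 97.0 ± 47.1 CPM in Apoe-/- phagocytic, 144 ± 84.4 CPM in Apoe-/- non-phagocytic, 128 ± 59.7 CPM in WT phagocytic and 141 ± 83.8 CPM in WT non-phagocytic libraries. Without Gnb1 and Reep6, the 11 remaining rod genes summed to 2368 ± 1163 CPM in Apoe-/- phagocytic, 2161 ± 706 CPM in Apoe-/- non-phagocytic, 1488 ± 819 CPM in WT phagocytic and 1431 ± 993 CPM in WT non-phagocytic libraries. Without Rom1 and Unc119, the 9 remaining shared genes summed to 971 ± 491 CPM in Apoe-/- phagocytic, 808 ± 258 CPM in Apoe-/- non-phagocytic, 659 ± 447 CPM in WT phagocytic and 578 ± 474 CPM in WT non-phagocytic libraries. For all of these sums the ranges of the groups overlapped. In bulk samples, fewer cells of a type and less RNA per cell cannot be told apart, and whether photoreceptor RNA lay inside the sorted cells, in attached debris or free in the suspension was not tested.

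**Figure D1:**
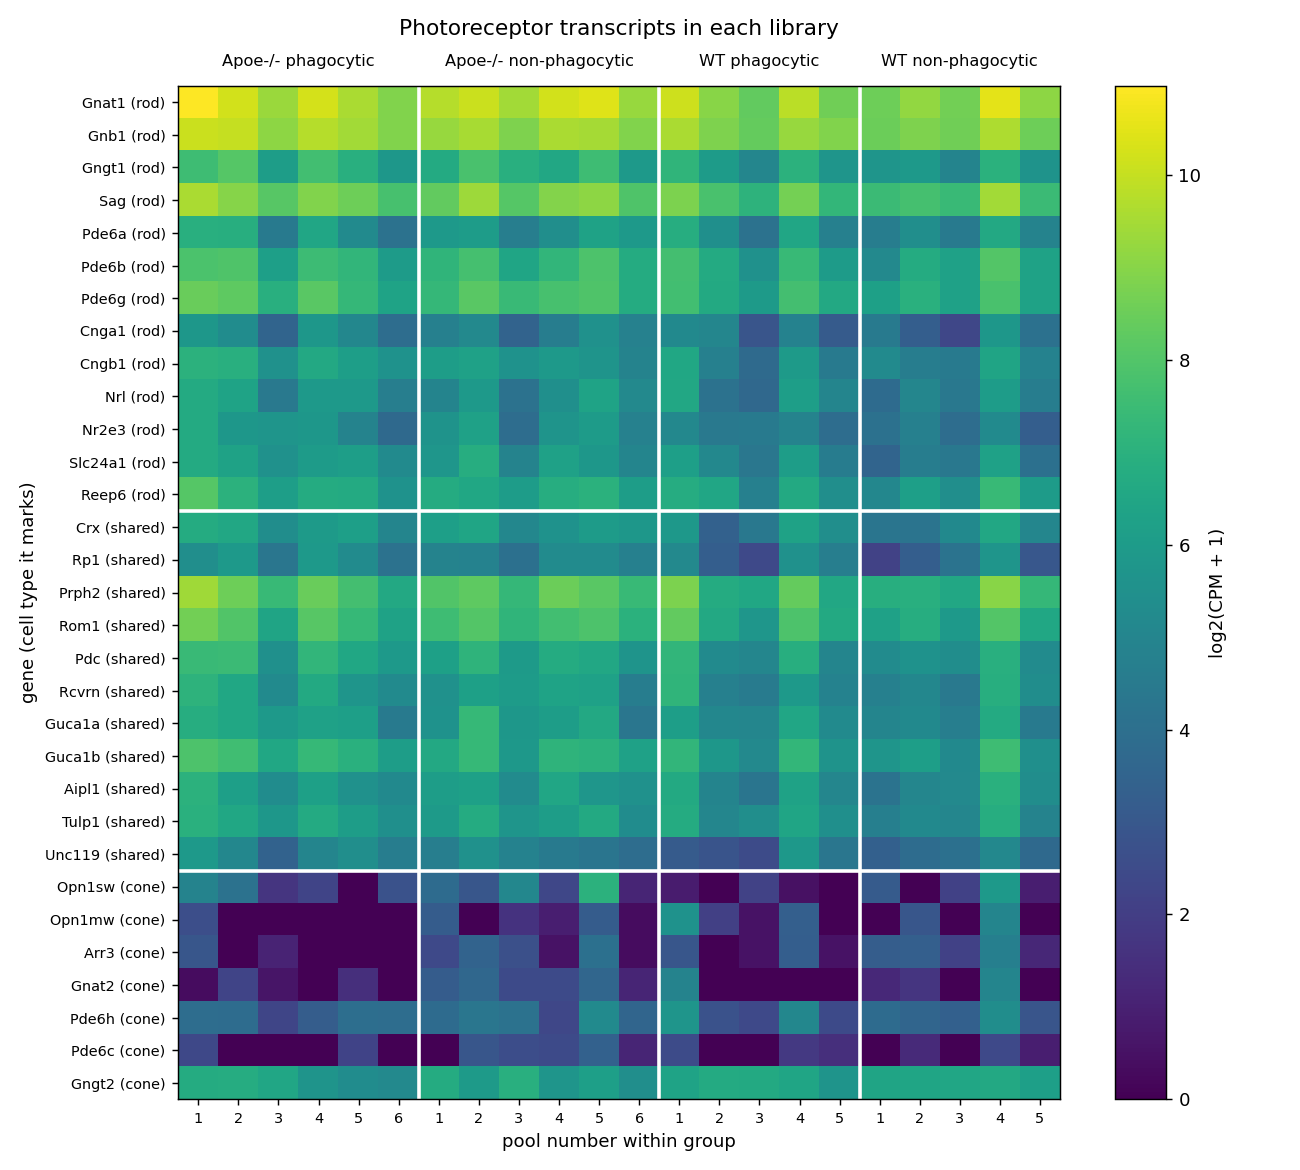
Levels of the 31 genes (rows) in the 22 libraries (columns), as log2(CPM + 1), with Apoe-/- groups left of WT groups and phagocytic left of non-phagocytic. Rod and shared genes have colour in every column and brighten or dim together down a column, while the cone genes other than Pde6h and Gngt2 are dark in many columns and bright in a few.

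Levels of different genes were compared per length, as the deposited TPM (length-normalised transcript abundance, mean ± SD over 22 libraries). Gnat1 was the most abundant at 528 ± 163 TPM. Then came Gnb1 at 227 ± 79.3, Pde6g at 189 ± 95.2, Sag at 183 ± 88.9, Gngt2 at 166 ± 71.7, Rom1 at 107 ± 60.2, Prph2 at 95.6 ± 66.7 and Gngt1 at 86.8 ± 44.3 TPM. The genes from Guca1a to Cnga1 in the order fell between 71.8 and 9.80 TPM. At the bottom were Rp1 and Slc24a1 and then 5 cone genes, Opn1sw at 6.75 ± 11.3, Opn1mw at 5.23 ± 10.3, Arr3 at 3.97 ± 4.47, Gnat2 at 2.84 ± 5.26 and Pde6c at 0.662 ± 0.683 TPM. For 28 of the 30 pairs of neighbours in this order the gap was smaller than the smaller of the 2 SDs. The exceptions were Gnat1 above Gnb1 and Gnat2 above Pde6c. For scale, the microglial genes Csf1r and Cx3cr1 averaged 686 and 541 TPM, so Gnat1 was close to Cx3cr1.

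Transducin couples the opsin to PDE6 and is built of an alpha, a beta and a gamma subunit. Gnat1, the rod transducin alpha subunit, had 472 to 1995 CPM (median 983) in Apoe-/- phagocytic libraries and 621 to 1387 CPM (median 969) in Apoe-/- non-phagocytic libraries. WT values of Gnat1 were 1109, 512, 324, 899 and 385 CPM in phagocytic pools 1 to 5 and 377, 574, 400.4, 1473 and 540.3 CPM in non-phagocytic pools 1 to 5. The phagocytic and non-phagocytic libraries of each genotype overlapped, as did the genotypes, and Apoe-/- phagocytic pool 1 stood above all others. The level of Gngt1, the rod transducin gamma subunit, ran between 55.2 and 265 CPM with a median of 155 in Apoe-/- phagocytic libraries and between 59.5 and 225 CPM with a median of 111 in Apoe-/- non-phagocytic libraries. Gngt1 in WT pools 1 to 5 was 144, 63.4, 31.7, 131 and 52.0 CPM after the phagocytic sort and 51.4, 58.3, 29.8, 126 and 49.0 CPM after the non-phagocytic sort. Gngt1 peaked in Apoe-/- phagocytic pool 2 and was lowest in WT non-phagocytic pool 3. Gnb1, the beta subunit that rod transducin shares with G proteins of many other cells, had a median of 767 CPM (lowest 476, highest 1079) in Apoe-/- phagocytic and 673 CPM (lowest 462, highest 749.8) in Apoe-/- non-phagocytic libraries. For Gnb1, the WT phagocytic pools 1 to 5 gave 758, 456, 331, 622 and 478 CPM and the WT non-phagocytic pools 1 to 5 gave 357, 459, 379.9, 776 and 373 CPM. Its highest library was Apoe-/- phagocytic pool 1, and its spread over libraries (CV 34.4%) was smaller than that of Gnat1 (CV 51.2%).

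PDE6 hydrolyses cyclic GMP in the outer segment. Pde6b, the catalytic beta subunit of rod PDE6, had 64.4 to 247 CPM (median 165) in Apoe-/- phagocytic libraries and 85.4 to 235 CPM (median 145) in Apoe-/- non-phagocytic libraries. WT values of Pde6b were 203, 104, 45.9, 164 and 63.5 CPM in phagocytic pools 1 to 5 and 35.2, 106, 75.3, 263 and 79.3 CPM in non-phagocytic pools 1 to 5. Pde6b was highest in WT non-phagocytic pool 4 and lowest in WT non-phagocytic pool 1. The level of Pde6a, the catalytic alpha subunit of rod PDE6, ran between 16.7 and 121 CPM with a median of 62.8 in Apoe-/- phagocytic libraries and between 24.9 and 79.3 CPM with a median of 59.4 in Apoe-/- non-phagocytic libraries. Pde6a in WT pools 1 to 5 was 112, 43.1, 16.7, 88.6 and 26.2 CPM after the phagocytic sort and 24.0, 42.3, 21.6, 96.5 and 28.6 CPM after the non-phagocytic sort. Pde6a peaked in Apoe-/- phagocytic pool 1 and was lowest in WT phagocytic pool 3. Pde6g, the inhibitory gamma subunit that transducin pulls off the rod enzyme, had a median of 222 CPM (lowest 81.1, highest 349) in Apoe-/- phagocytic and 192 CPM (lowest 105, highest 282) in Apoe-/- non-phagocytic libraries. For Pde6g, the WT phagocytic pools 1 to 5 gave 202, 99.7, 61.3, 205 and 95.9 CPM and the WT non-phagocytic pools 1 to 5 gave 73.3, 125, 77.2, 221 and 79.7 CPM. Most Pde6g was in Apoe-/- phagocytic pool 1 and least in WT phagocytic pool 3. All 3 PDE6 subunits had reads in every library. WT non-phagocytic pool 4 had more of each than the other WT non-phagocytic libraries.

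The cyclic GMP-gated channel carries the dark current, and the exchanger removes the calcium that enters through it. Cnga1, the alpha subunit of the rod channel, had 10.6 to 55.6 CPM (median 35.6) in Apoe-/- phagocytic libraries and 10.4 to 45.9 CPM (median 26.9) in Apoe-/- non-phagocytic libraries. WT values of Cnga1 were 36.3, 31.9, 6.43, 28.2 and 7.99 CPM in phagocytic pools 1 to 5 and 21.1, 8.60, 4.10, 54.2 and 16.03 CPM in non-phagocytic pools 1 to 5. Cnga1 was highest in Apoe-/- phagocytic pool 1 and lowest in WT non-phagocytic pool 3. The level of Cngb1, the beta subunit of the rod channel, ran between 45.1 and 132 CPM with a median of 84.4 in Apoe-/- phagocytic libraries and between 29.0 and 76.5 CPM with a median of 54.9 in Apoe-/- non-phagocytic libraries. Cngb1 in WT pools 1 to 5 was 90.2, 26.7, 12.9, 62.5 and 21.8 CPM after the phagocytic sort and 37.3, 24.3, 21.6, 83.5 and 27.7 CPM after the non-phagocytic sort. Cngb1 peaked in Apoe-/- phagocytic pool 1 and was lowest in WT phagocytic pool 3. Slc24a1, the sodium, calcium and potassium exchanger of the rod outer segment, had a median of 66.1 CPM (lowest 36.8, highest 104) in Apoe-/- phagocytic and 54.0 CPM (lowest 28.6, highest 113) in Apoe-/- non-phagocytic libraries. For Slc24a1, the WT phagocytic pools 1 to 5 gave 72.6, 34.1, 19.3, 67.6 and 23.5 CPM and the WT non-phagocytic pools 1 to 5 gave 10.6, 24.3, 19.8, 75.9 and 15.6 CPM. Most Slc24a1 was in Apoe-/- non-phagocytic pool 2 and least in WT non-phagocytic pool 1. Sag, the rod arrestin that caps the activated opsin, had 221 to 758 CPM (median 425) in Apoe-/- phagocytic libraries and 248 to 657 CPM (median 402) in Apoe-/- non-phagocytic libraries. WT values of Sag were 447, 222, 135, 412 and 154 CPM in phagocytic pools 1 to 5 and 178, 214, 170, 688 and 176 CPM in non-phagocytic pools 1 to 5. The library order for Sag resembled that for Gnat1, with the same highest and the same lowest library. The level of Reep6, an endoplasmic reticulum protein needed by rods and present in other tissues, ran between 46.8 and 268 CPM with a median of 105 in Apoe-/- phagocytic libraries and between 66.4 and 126 CPM with a median of 98.9 in Apoe-/- non-phagocytic libraries. Reep6 in WT pools 1 to 5 was 109, 88.2, 26.6, 100.1 and 41.7 CPM after the phagocytic sort and 32.4, 72.5, 41.8, 168 and 63.3 CPM after the non-phagocytic sort. Reep6 peaked in Apoe-/- phagocytic pool 1 and was lowest in WT phagocytic pool 3.

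Photoreceptor transcription factors were present as well. Nrl, the leucine zipper factor that commits precursors to the rod fate, had a median of 58.1 CPM (lowest 20.6, highest 103) in Apoe-/- phagocytic and 39.2 CPM (lowest 16.6, highest 80.5) in Apoe-/- non-phagocytic libraries. For Nrl, the WT phagocytic pools 1 to 5 gave 94.9, 16.7, 12.0, 69.7 and 30.6 CPM and the WT non-phagocytic pools 1 to 5 gave 13.4, 31.8, 19.8, 65.1 and 24.3 CPM. Most Nrl was in Apoe-/- phagocytic pool 1 and least in WT phagocytic pool 3. Nr2e3, the nuclear receptor that acts with Nrl and represses cone genes in rods, had 12.5 to 104 CPM (median 53.1) in Apoe-/- phagocytic libraries and 14.1 to 75.6 CPM (median 49.0) in Apoe-/- non-phagocytic libraries. WT values of Nr2e3 were 33.97, 20.9, 21.9, 28.7 and 14.2 CPM in phagocytic pools 1 to 5 and 16.2, 26.5, 14.2, 36.9 and 8.67 CPM in non-phagocytic pools 1 to 5. Both Apoe-/- groups had higher medians than both WT groups, with overlap between groups. The level of Crx, the homeodomain factor that both photoreceptor types use, ran between 30.9 and 105 CPM with a median of 66.7 in Apoe-/- phagocytic libraries and between 33.2 and 86.5 CPM with a median of 58.6 in Apoe-/- non-phagocytic libraries. Crx in WT pools 1 to 5 was 56.6, 9.65, 19.7, 77.9 and 41.3 CPM after the phagocytic sort and 18.3, 17.6, 35.4, 94.3 and 32.1 CPM after the non-phagocytic sort. WT non-phagocytic pool 4 lay far above the other WT non-phagocytic libraries, and WT phagocytic pool 2 was the lowest of all. A small part of the exons of Nr2e3, 61 of 3369 bases, is shared with the predicted gene Gm15507 on the same strand.

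The Crx homeodomain is known to bind the letters TAATCC. These letters, or GGATTA on the other strand, were looked for in RefSeq promoters (build GRCm38.p6, 250 bases before to 50 after the gene's start), which were on hand for 22 of the 31 genes. They stood in the promoters of 9 of the 22 genes (Aipl1, Cnga1, Cngb1, Crx, Gnat2, Gngt1, Guca1a, Sag and Unc119) and in 7.06% of all 32851 promoters of the same length. A gene counted when any of its promoters matched, while the share of all promoters counts each promoter. Unc119 had several promoters on hand, and only that at chr11:78345334-78345633 held the letters. A match is a description of the letters and not a bound site. The letters TGCTGA, the core of the element that Nrl and related Maf factors bind, or TCAGCA on the other strand, stood in 5 of the 22 (Aipl1, Opn1sw, Pde6b, Sag and Unc119) and in 19.5% of all promoters. The promoters of Sag (chr1:87803430-87803729, plus strand), Gngt1 (chr6:3993758-3994057, plus strand), Crx (chr7:15879906-15880205, minus strand) and Gnat2 (chr3:108092816-108093115, plus strand) are shown because they belong to 2 rod genes, the factor itself and a cone gene. That of Opn1sw (chr6:29380464-29380763, minus strand), which holds no TAATCC, is the cone opsin described with the cone genes. Capitals mark TAATCC or GGATTA, and each sequence runs 5′ to 3′ along the gene.
Sag: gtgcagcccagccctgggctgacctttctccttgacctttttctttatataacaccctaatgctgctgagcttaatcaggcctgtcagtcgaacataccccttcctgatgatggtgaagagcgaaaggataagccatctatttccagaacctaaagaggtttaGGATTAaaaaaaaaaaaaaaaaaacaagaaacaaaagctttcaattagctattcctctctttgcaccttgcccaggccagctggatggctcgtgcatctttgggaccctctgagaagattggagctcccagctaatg
Gngt1: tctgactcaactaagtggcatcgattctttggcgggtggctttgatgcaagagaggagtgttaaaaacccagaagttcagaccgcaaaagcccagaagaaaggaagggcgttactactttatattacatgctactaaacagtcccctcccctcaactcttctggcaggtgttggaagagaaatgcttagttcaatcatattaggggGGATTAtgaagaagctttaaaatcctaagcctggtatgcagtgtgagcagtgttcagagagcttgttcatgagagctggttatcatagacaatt
Crx: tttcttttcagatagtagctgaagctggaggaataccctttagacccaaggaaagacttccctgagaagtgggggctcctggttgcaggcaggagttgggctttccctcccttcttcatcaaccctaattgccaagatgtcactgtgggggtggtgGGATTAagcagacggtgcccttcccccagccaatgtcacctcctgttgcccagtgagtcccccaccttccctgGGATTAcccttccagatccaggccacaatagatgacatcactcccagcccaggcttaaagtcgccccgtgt
Gnat2: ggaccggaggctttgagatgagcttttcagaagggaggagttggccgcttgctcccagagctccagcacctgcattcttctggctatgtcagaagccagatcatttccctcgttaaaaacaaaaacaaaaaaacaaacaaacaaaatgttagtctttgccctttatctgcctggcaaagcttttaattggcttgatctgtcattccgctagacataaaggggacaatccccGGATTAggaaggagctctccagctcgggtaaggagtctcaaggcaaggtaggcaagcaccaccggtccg
Opn1sw: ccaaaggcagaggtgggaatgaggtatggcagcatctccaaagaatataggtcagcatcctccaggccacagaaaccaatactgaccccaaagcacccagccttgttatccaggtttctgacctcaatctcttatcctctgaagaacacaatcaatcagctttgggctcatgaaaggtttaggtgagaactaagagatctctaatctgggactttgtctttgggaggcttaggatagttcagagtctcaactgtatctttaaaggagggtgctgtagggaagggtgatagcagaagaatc

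Prph2 and Rom1 shape the rims of the outer segment discs, and Rp1 lies along the axoneme. Prph2, the disc rim tetraspanin peripherin 2, had a median of 278 CPM (lowest 97.0, highest 673) in Apoe-/- phagocytic and 270 CPM (lowest 156, highest 366) in Apoe-/- non-phagocytic libraries. For Prph2, the WT phagocytic pools 1 to 5 gave 441, 105, 91.3, 329 and 93.7 CPM and the WT non-phagocytic pools 1 to 5 gave 117, 122, 93.9, 517 and 155 CPM. Most Prph2 was in Apoe-/- phagocytic pool 1 and least in WT phagocytic pool 3. Rom1, the tetraspanin that pairs with Prph2 and is read in other tissues too, had 77.8 to 396 CPM (median 206) in Apoe-/- phagocytic libraries and 129 to 261 CPM (median 194) in Apoe-/- non-phagocytic libraries. WT values of Rom1 were 316, 96.5, 52.7, 235 and 99.9 CPM in phagocytic pools 1 to 5 and 76.8, 112, 57.4, 261 and 91.0 CPM in non-phagocytic pools 1 to 5. Rom1 was highest in Apoe-/- phagocytic pool 1 and lowest in WT phagocytic pool 3. The level of Rp1, the microtubule-binding protein of the axoneme, ran between 16.7 and 60.6 CPM with a median of 39.6 in Apoe-/- phagocytic libraries and between 15.3 and 38.4 CPM with a median of 28.3 in Apoe-/- non-phagocytic libraries. Rp1 in WT pools 1 to 5 was 34.7, 8.69, 4.29, 45.8 and 24.9 CPM after the phagocytic sort and 3.52, 8.60, 17.1, 50.96 and 6.93 CPM after the non-phagocytic sort. Rp1 was low, with single-digit CPM in some WT libraries, yet it had reads in every library.

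Calcium sensors time the recovery after light. Rcvrn, or recoverin, which holds back the opsin kinase, had a median of 71.2 CPM (lowest 36.8, highest 137) in Apoe-/- phagocytic and 68.1 CPM (lowest 23.8, highest 82.0) in Apoe-/- non-phagocytic libraries. For Rcvrn, the WT phagocytic pools 1 to 5 gave 142, 26.7, 22.7, 60.7 and 28.4 CPM and the WT non-phagocytic pools 1 to 5 gave 26.1, 32.5, 20.9, 118 and 40.3 CPM. Most Rcvrn was in WT phagocytic pool 1 and least in WT non-phagocytic pool 3. Guca1a, a guanylate cyclase activator, had 21.7 to 113 CPM (median 74.3) in Apoe-/- phagocytic libraries and 18.6 to 159.6 CPM (median 61.0) in Apoe-/- non-phagocytic libraries. WT values of Guca1a were 69.5, 32.8, 31.3, 89.8 and 36.4 CPM in phagocytic pools 1 to 5 and 30.3, 35.9, 24.6, 103 and 21.2 CPM in non-phagocytic pools 1 to 5. Guca1a was highest in Apoe-/- non-phagocytic pool 2 and lowest in Apoe-/- non-phagocytic pool 6. The level of Guca1b, the second guanylate cyclase activator, ran between 66.9 and 235 CPM with a median of 143 in Apoe-/- phagocytic libraries and between 56.8 and 164 CPM with a median of 113 in Apoe-/- non-phagocytic libraries. Guca1b in WT pools 1 to 5 was 146, 54.4, 34.7, 153 and 48.9 CPM after the phagocytic sort and 51.4, 68.8, 35.8, 188 and 42.5 CPM after the non-phagocytic sort. Guca1b peaked in Apoe-/- phagocytic pool 1 and was lowest in WT phagocytic pool 3. Guca1a and Guca1b are neighbours on chromosome 17, and no exon of either overlaps the other in the annotation used.

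The remaining shared genes serve chaperoning and transport. Pdc, or phosducin, which binds the beta and gamma subunits of transducin, had a median of 119 CPM (lowest 44.0, highest 177) in Apoe-/- phagocytic and 83.3 CPM (lowest 50.4, highest 139) in Apoe-/- non-phagocytic libraries. For Pdc, the WT phagocytic pools 1 to 5 gave 148, 37.3, 31.7, 117 and 30.6 CPM and the WT non-phagocytic pools 1 to 5 gave 38.1, 47.1, 40.6, 118 and 38.6 CPM. Most Pdc was in Apoe-/- phagocytic pool 2 and least in WT phagocytic pool 5. Aipl1, the chaperone that PDE6 needs to fold, had 35.95 to 131 CPM (median 58.4) in Apoe-/- phagocytic libraries and 38.6 to 88.8 CPM (median 60.8) in Apoe-/- non-phagocytic libraries. WT values of Aipl1 were 99.2, 30.2, 18.4, 79.1 and 31.5 CPM in phagocytic pools 1 to 5 and 16.9, 31.8, 34.3, 124 and 40.3 CPM in non-phagocytic pools 1 to 5. Aipl1 was highest in Apoe-/- phagocytic pool 1 and lowest in WT non-phagocytic pool 1. The level of Tulp1, a tubby-like protein of outer segment transport, ran between 43.5 and 123 CPM with a median of 79.9 in Apoe-/- phagocytic libraries and between 39.4 and 105 CPM with a median of 65.0 in Apoe-/- non-phagocytic libraries. Tulp1 in WT pools 1 to 5 was 107, 32.2, 41.2, 86.8 and 43.5 CPM after the phagocytic sort and 25.4, 35.9, 31.3, 112 and 28.6 CPM after the non-phagocytic sort. Tulp1 peaked in Apoe-/- phagocytic pool 1 and was lowest in WT non-phagocytic pool 1. Unc119, a lipid-binding protein that carries transducin alpha, had a median of 32.0 CPM (lowest 10.02, highest 57.5) in Apoe-/- phagocytic and 23.1 CPM (lowest 14.0, highest 46.2) in Apoe-/- non-phagocytic libraries. For Unc119, the WT phagocytic pools 1 to 5 gave 7.81, 6.11, 4.72, 56.5 and 18.7 CPM and the WT non-phagocytic pools 1 to 5 gave 9.16, 13.8, 15.3, 34.2 and 12.6 CPM. Unc119 had the widest spread relative to the other rod genes among the rod and shared genes, and WT phagocytic pool 4 stood apart in its group.

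Rod and shared genes moved together from library to library. The level of Gnat1 spanned 6.16-fold over the 22 libraries (CV 51.2%), but Gnat1 per 100 CPM of the 10 other rod genes outside the widely used ones stayed at 60.7 to 107 CPM (CV 12.3%). For Sag the level spanned 5.62-fold and the ratio 20.2 to 29.5 CPM per 100 (CV 11.02%). For Pde6g the ratio was 7.46 to 12.9 per 100 (CV 13.9%). Over the 11 rod genes without Gnb1 and Reep6, the level had a median CV of 57.7% and the ratio 27.0%. Over the 9 shared genes without Rom1 and Unc119 these were 57.1% and 21.9%. The microglial genes went the other way, with CVs of 31.2% for the level of Cx3cr1 and 69.5% for its ratio to the rod genes, and 40.5% for the level of Csf1r and 77.7% for its ratio. Rbp3, a photoreceptor gene outside the set, had a ratio CV of 30.5%. These values share library, depth and scaling and are given as a description.

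A few libraries carried the high values. Of the 20 rod and shared genes outside the widely used ones, 13 were highest in Apoe-/- phagocytic pool 1 and 8 were lowest in WT phagocytic pool 3. WT non-phagocytic pool 4 reached 4128 CPM for the summed rod genes, against 1226, 1766, 1275 and 1481 CPM in the other WT non-phagocytic pools. The same library had the lowest summed level of microglial markers of all, 7402 CPM, and WT phagocytic pool 4 the next lowest, 8440 CPM. In contrast, Apoe-/- phagocytic pool 1, the highest for rod genes, had 21537 CPM of microglial markers. The 6 libraries with more microglial markers than it (22647 to 25148 CPM) had rod sums of 1044 to 2585 CPM. The 7 other libraries with rod sums of at least 3273 CPM had 7402 to 16246 CPM of microglial markers. Further libraries were low in rod genes without being high in microglial markers. Apoe-/- phagocytic pool 6 had 1569 CPM of rod genes and 10672 CPM of microglial markers. WT non-phagocytic pool 5 had 1481 and 12467 CPM. Rod and microglial sums are shares of the same library, and what links them was not tested.

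**Figure D2:**
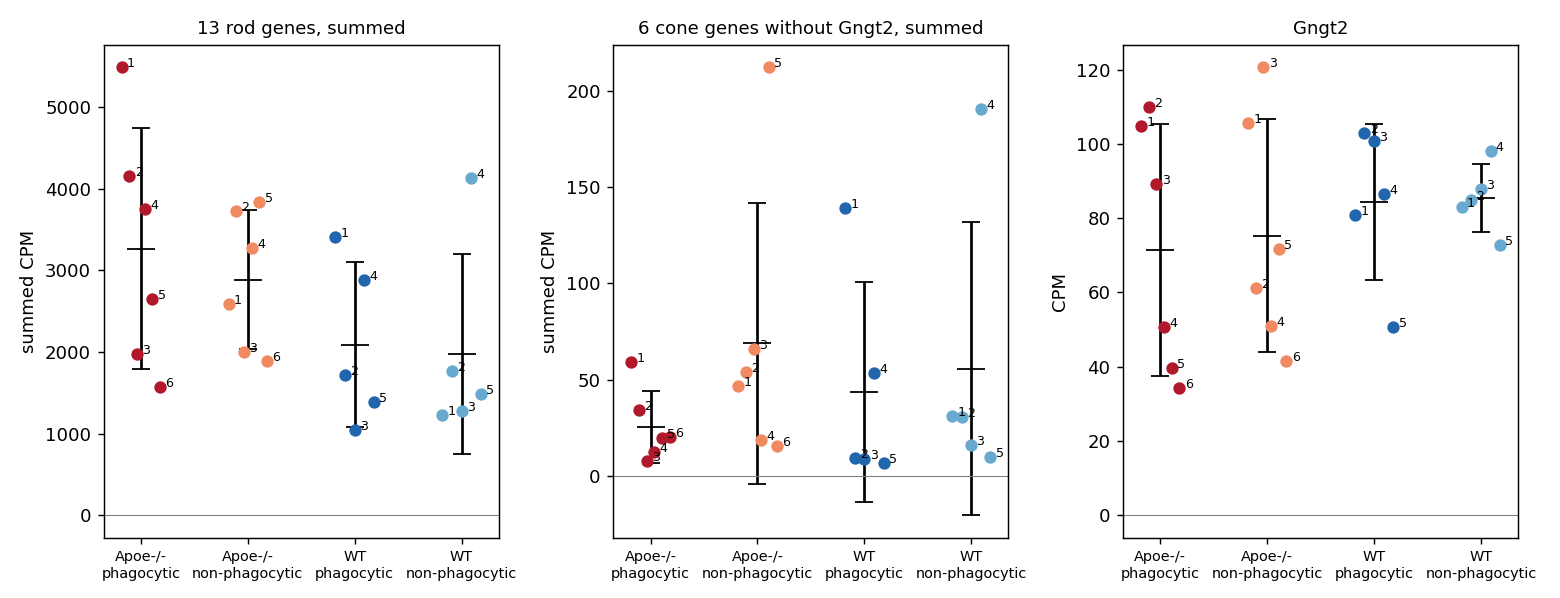
Summed CPM of the 13 rod genes (left), summed CPM of the 6 cone genes other than Gngt2 (middle) and CPM of Gngt2 (right), 1 point per library with its pool number, and the mean ± SD of each group in black. Rod sums spread from 1044 CPM in WT phagocytic pool 3 to 5491 CPM in Apoe-/- phagocytic pool 1, cone sums are high in single libraries, and Gngt2 varies far less.

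Cone genes were low and uneven. The 6 cone genes other than Gngt2 made 0.434 to 7.13 CPM per 100 CPM of the 11 rod genes without Gnb1 and Reep6, and on the TPM scale, per length, 0.191 to 10.1 TPM per 100 TPM. Opn1sw, the short-wavelength cone opsin, had 0 to 28.9 CPM (median 4.82) in Apoe-/- phagocytic libraries and 1.22 to 131 CPM (median 9.89) in Apoe-/- non-phagocytic libraries. WT values of Opn1sw were 0.781, 0, 3.43, 0.428 and 0 CPM in phagocytic pools 1 to 5 and 7.75, 0, 3.36, 59.6 and 0.867 CPM in non-phagocytic pools 1 to 5. It was at 0 reads in 4 libraries, and Apoe-/- non-phagocytic pool 5 stood far above the rest. The level of Opn1mw, the medium-wavelength cone opsin, ran between 0 and 5.23 CPM with a median of 0 in Apoe-/- phagocytic libraries and between 0 and 8.18 CPM with a median of 1.49 in Apoe-/- non-phagocytic libraries. Opn1mw in WT pools 1 to 5 was 47.6, 3.22, 0.429, 8.98 and 0 CPM after the phagocytic sort and 0, 6.73, 0, 30.9 and 0 CPM after the non-phagocytic sort. Opn1mw had reads in 12 of 22 libraries and was highest in WT phagocytic pool 1. Exons of Opn1sw share 397 of 2557 bases with Calu on the opposite strand, a gene that every library held at 58.0 to 209 CPM. The strand setting of the counting is not stated in the labels. Reads of Calu were present in the libraries where Opn1sw was at 0, and whether reads of Calu entered the Opn1sw counts elsewhere was not tested.

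The mix of the opsins differed between libraries. Apoe-/- phagocytic pool 1 had 105 reads of Opn1sw and 19 of Opn1mw, so that Opn1mw made 15.3% of the opsin reads (95% Wilson interval 10.03% to 22.7%). Apoe-/- non-phagocytic pool 5 had 209 reads of Opn1sw and 13 of Opn1mw, a share of 5.86% (3.45% to 9.76%). WT phagocytic pool 1 had 2 reads of Opn1sw and 122 of Opn1mw, a share of 98.4% (94.3% to 99.6%). Nearly all opsin reads were thus of Opn1mw in WT phagocytic pool 1 and most were of Opn1sw in both Apoe-/- libraries. WT non-phagocytic pool 4 had 110 reads of Opn1sw and 57 of Opn1mw, a share of 34.1% (27.4% to 41.6%). The other 18 libraries had fewer than 100 opsin reads each. Mouse cones are known to carry mostly the short-wavelength opsin in the ventral retina and more of the medium-wavelength opsin in the dorsal retina, and which part of the retina a pool's cells came from is not in the labels.

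**Figure D3:**
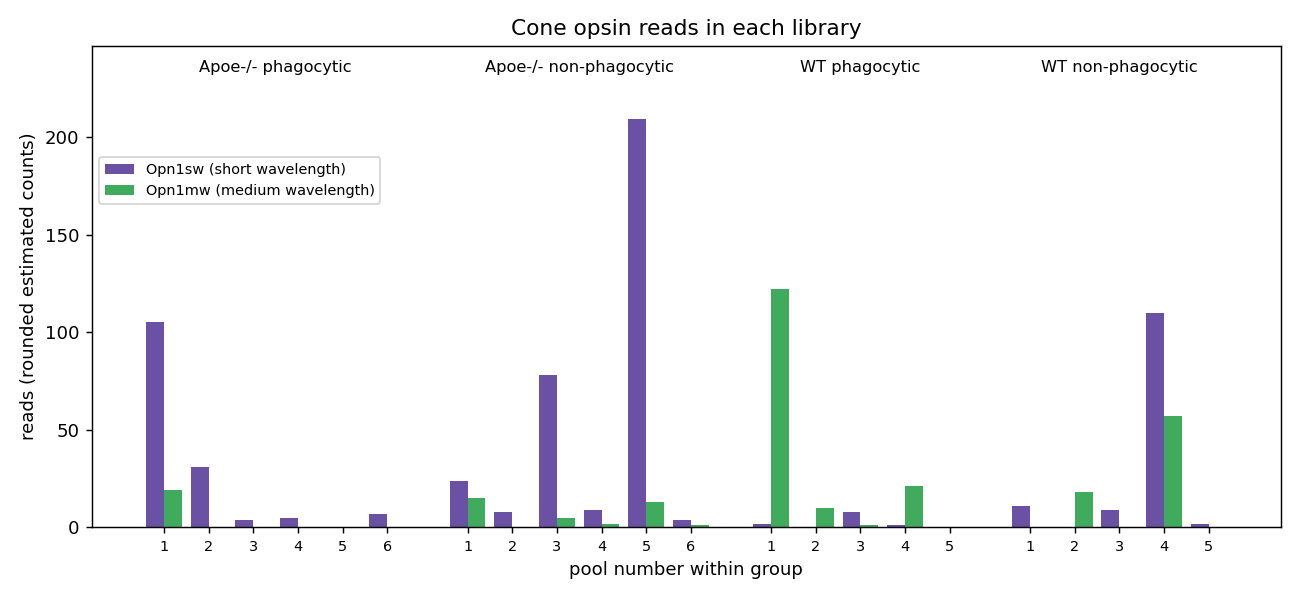
Reads of Opn1sw (purple) and Opn1mw (green), as rounded estimated counts, in each of the 22 libraries, with Apoe-/- groups left of WT groups. Of the 4 libraries with at least 100 opsin reads, WT phagocytic pool 1 holds almost only Opn1mw (2 reads of Opn1sw, 122 of Opn1mw) and Apoe-/- non-phagocytic pool 5 mostly Opn1sw (209 reads of Opn1sw, 13 of Opn1mw).

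The other cone genes of the cascade were low too. Gnat2, the cone transducin alpha subunit, had a median of 0.416 CPM (lowest 0, highest 3.78) in Apoe-/- phagocytic and 6.36 CPM (lowest 1.22, highest 11.8) in Apoe-/- non-phagocytic libraries. For Gnat2, the WT phagocytic pools 1 to 5 gave 28.5, 0, 0, 0 and 0 CPM and the WT non-phagocytic pools 1 to 5 gave 1.41, 2.24, 0, 30.4 and 0 CPM. Gnat2 was at 0 reads in 8 libraries, and of the WT phagocytic libraries pool 1 alone had any. Arr3, the cone arrestin, had 0 to 6.61 CPM (median 0) in Apoe-/- phagocytic libraries and 0.305 to 15.7 CPM (median 4.87) in Apoe-/- non-phagocytic libraries. WT values of Arr3 were 6.64, 0, 0.429, 8.56 and 0.444 CPM in phagocytic pools 1 to 5 and 8.46, 8.97, 3.36, 25.5 and 1.2999 CPM in non-phagocytic pools 1 to 5. Reads of Arr3 were found in 17 of 22 libraries. The level of Pde6h, the inhibitory gamma subunit of cone PDE6, ran between 3.90 and 14.4 CPM with a median of 13.8 in Apoe-/- phagocytic libraries and between 4.06 and 36.5 CPM with a median of 14.8 in Apoe-/- non-phagocytic libraries. Pde6h in WT pools 1 to 5 was 51.1, 5.79, 4.29, 32.9 and 4.44 CPM after the phagocytic sort and 13.4, 10.8, 9.32, 40.1 and 6.50 CPM after the non-phagocytic sort. Pde6h was the only cone gene other than Gngt2 with reads in all 22 libraries. Pde6c, the catalytic alpha subunit of cone PDE6, had a median of 0 CPM (lowest 0, highest 4.13) in Apoe-/- phagocytic and 4.74 CPM (lowest 0, highest 9.43) in Apoe-/- non-phagocytic libraries. For Pde6c, the WT phagocytic pools 1 to 5 gave 4.69, 0, 0, 2.57 and 1.78 CPM and the WT non-phagocytic pools 1 to 5 gave 0, 1.496, 0, 4.34 and 0.867 CPM. It had reads in 13 libraries and did not pass the filter on low counts. Exons of Pde6h share 136 of 7846 bases with Arhgdib on the opposite strand, which was at 229.6 to 576 CPM.

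Gngt2, the gamma subunit of cone transducin, which white blood cells also make, had 34.3 to 110.1 CPM (median 69.9) in Apoe-/- phagocytic libraries and 41.5 to 121 CPM (median 66.5) in Apoe-/- non-phagocytic libraries. WT values of Gngt2 were 80.8, 103, 101, 86.4 and 50.6 CPM in phagocytic pools 1 to 5 and 83.1, 84.9, 88.0, 98.1 and 72.8 CPM in non-phagocytic pools 1 to 5. Gngt2 was the most even gene of the set: its level had a CV of 32.3% over the 22 libraries, against 208% for Opn1mw and 203% for Opn1sw. Its ratio to the rod genes had a CV of 63.9%, larger than that of its level. Among the 31 genes only Gngt2 had a ratio that varied more than its level, a pattern it had in common with Csf1r and Cx3cr1. Glul, a gene on the list of Müller glia markers, had it too, with CVs of 28.9% for its level and 64.0% for its ratio. By TPM only Gnat1, Gnb1, Pde6g and Sag stood above it, at 166 ± 71.7 TPM, and all 6 other cone genes below it. Exons of Gngt2 share 234 of 1877 bases with Abi3 on the opposite strand, which was at 56.9 to 265 CPM. How many Gngt2 reads came from cones was not tested.

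**Figure D4:**
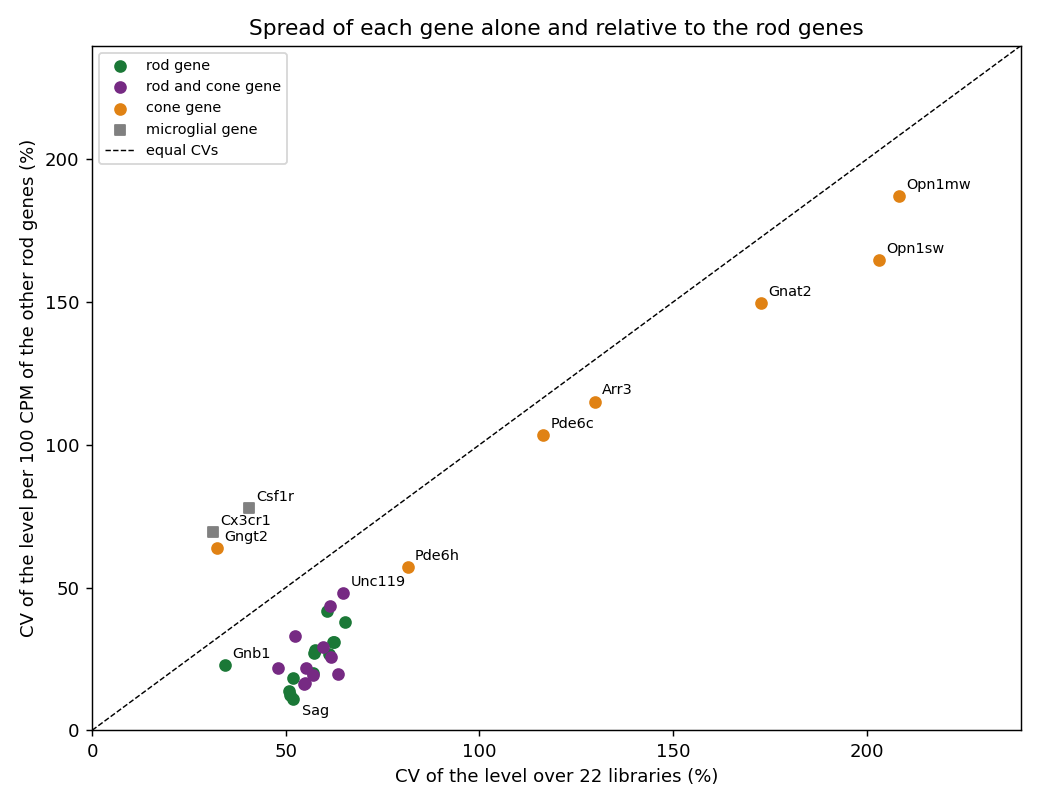
Coefficient of variation (CV) of each gene's level over the 22 libraries (x axis) and of its level per 100 CPM of the other rod genes (y axis), 1 point per gene. Rod and shared genes lie below the line of equal CVs, cone genes reach a level CV of 208% for Opn1mw, and Gngt2 lies above the line beside the microglial genes. Glul, on the list of Müller glia markers, is not drawn and would lie there too (level CV 28.9%, ratio CV 64.0%).

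Rod and shared genes had positive fold changes in Apoe-/- over WT phagocytic microglia, and none of them passed the test. With edgeR (quasi-likelihood fit, p-values adjusted after Benjamini and Hochberg over the 12415 genes tested), 0 of the 30 photoreceptor genes had an adjusted p below 0.05 in Apoe-/- against WT phagocytic libraries, where 0.0322% of all genes did. For 0 of the 30 did all Apoe-/- values lie above all WT values, against 0.298% of all genes. The smallest adjusted p was 0.649, for Nr2e3. The fold change was positive for 25 of the 30 and for 49.5% of all genes, with a median log2 fold change of 0.59, against a median near 0 over all genes tested. For the 20 rod and shared genes without the widely used ones, all were positive with a median of 0.65. Without Apoe-/- phagocytic pool 1 the median was 0.43. Since these genes move together between libraries, their common sign is not 20 separate observations. At an unadjusted p below 0.05 stood 5 genes, namely Cngb1, Gnb1, Nr2e3, Opn1sw and Opn1mw, and 6.62% of all genes.

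Nr2e3 averaged 51.1 ± 30.9 CPM in Apoe-/- phagocytic and 23.9 ± 7.60 CPM in WT phagocytic libraries, a log2 fold change of 1.11 ± 0.43 (SE). Cngb1 averaged 85.6 ± 37.0 CPM in Apoe-/- phagocytic and 42.8 ± 32.5 CPM in WT phagocytic libraries, a log2 fold change of 1.01 ± 0.42. Gnat1 averaged 1048 ± 554 CPM in Apoe-/- phagocytic and 646 ± 342 CPM in WT phagocytic libraries, a log2 fold change of 0.70 ± 0.38. For all 3 the groups overlapped, and the difference was not past the threshold. Sag averaged 436 ± 193 CPM in Apoe-/- phagocytic and 274 ± 146 CPM in WT phagocytic libraries, a log2 fold change of 0.67 ± 0.40. Gnb1 averaged 777 ± 246 CPM in Apoe-/- phagocytic and 529 ± 165 CPM in WT phagocytic libraries, a log2 fold change of 0.55 ± 0.25. The cone opsins pointed in opposite directions, with log2 fold changes of 3.43 ± 1.36 for Opn1sw and -3.27 ± 1.39 for Opn1mw, each resting on a few libraries. edgeR's adjusted p was 0.675 for Opn1sw and 0.708 for Opn1mw. Gnat2 had a log2 fold change of -2.36 ± 1.41, which turned to 4.25 ± 1.94 without WT phagocytic pool 1, the sole library of its group with Gnat2 reads, with an edgeR adjusted p of 0.859. Gngt2 differed by -0.22 ± 0.29.

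In non-phagocytic cells the picture was alike. Against WT, Apoe-/- non-phagocytic libraries had positive fold changes for 27 of the 30 genes (49.7% of all genes) and a median log2 fold change of 0.51, against a median near 0 over all genes. By edgeR's adjusted p, 0 of the 30 were called, against 0.0161% of all genes, and the smallest adjusted p was 0.999. All of the 20 rod and shared genes without the widely used ones were positive, with a median of 0.54, which became 1.14 without WT non-phagocytic pool 4 and 0.29 without Apoe-/- non-phagocytic pools 2 and 5, the libraries richest in satellite-like reads (51.7% and 47.6%). Unadjusted p fell below 0.05 for Gngt1, Nr2e3 and Slc24a1, and for 3.8% of all genes. Nr2e3 averaged 46.5 ± 22.8 CPM in Apoe-/- non-phagocytic and 20.5 ± 11.2 CPM in WT non-phagocytic libraries, a log2 fold change of 1.17 ± 0.44 (SE). Gngt1 averaged 131 ± 62.3 CPM in Apoe-/- non-phagocytic and 62.9 ± 36.7 CPM in WT non-phagocytic libraries, a log2 fold change of 1.05 ± 0.43. Both sets of libraries overlapped. Slc24a1 averaged 59.5 ± 31.6 CPM in Apoe-/- non-phagocytic and 29.2 ± 26.6 CPM in WT non-phagocytic libraries, a log2 fold change of 1.01 ± 0.45. Gnat1 averaged 969 ± 299 CPM in Apoe-/- non-phagocytic and 673 ± 456 CPM in WT non-phagocytic libraries, a log2 fold change of 0.53 ± 0.38. Among cone genes, Opn1sw had 1.148 ± 1.06 and Opn1mw -1.20 ± 1.303 (log2 fold change ± SE), and Gnat2 0.01 ± 1.26. The satellite-like share was also higher on average in Apoe-/- than in WT libraries of each sort. With that share as a covariate the median log2 fold change of the 20 rod and shared genes was 0.43 in phagocytic and 0.29 in non-phagocytic libraries, with 19 of 20 positive in each. Summed microglial markers came to 9545 to 22647 CPM in Apoe-/- phagocytic, 10392 to 23225 CPM in Apoe-/- non-phagocytic, 8440.1 to 24683 CPM in WT phagocytic and 7402 to 25148 CPM in WT non-phagocytic libraries (lowest to highest), ranges that overlapped. Of the 12 microglial markers, 10 had negative fold changes in Apoe-/- over WT phagocytic libraries (median log2 fold change -0.23). In non-phagocytic libraries 7 of the 12 did (median -0.02), and 0 were called by edgeR in either. The part of microglial markers and satellite-like reads in the photoreceptor values was not tested.

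No photoreceptor gene differed detectably between phagocytic and non-phagocytic cells at this depth and number of libraries. In Apoe-/- mice, 23 of the 30 genes were higher in phagocytic than in non-phagocytic libraries (47.7% of all genes), the median log2 fold change was 0.19, against -0.02 over all genes, and 0 were called by edgeR's adjusted p, against 0.467% of all genes. The smallest adjusted p was 0.562 for Gnat2, and 0 of the 30 had an unadjusted p below 0.05, against 9.93% of all genes. In WT mice, 23 of the 30 were higher in phagocytic libraries (49.2% of all genes), with a median of 0.18 against -0.01, and 0 were called by edgeR, against 0.209% of all genes. For Gnat1 the log2 fold change of phagocytic over non-phagocytic was 0.11 ± 0.36 in Apoe-/- and -0.06 ± 0.40 in WT cells. For Sag it was 0.05 ± 0.37 in Apoe-/- and -0.06 ± 0.41 in WT cells. Gnat1 and Sag stood at the low end in WT cells. Over the 20 rod and shared genes without the widely used ones, log2 fold changes ran from -0.06 to 0.57 in WT cells. In Apoe-/- cells they ran from -0.005 to 0.65. A p that misses the threshold does not show that the sorts were alike: the 95% interval for Gnat1 ran from -0.59 to 0.82 in Apoe-/- and from -0.84 to 0.72 in WT cells (from its SE).

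The size of these sort differences depended on single libraries and on the satellite-like reads. In WT, 18 of the 20 rod and shared genes were positive with a median of 0.22. This was 9 of 20 with -0.07 without WT phagocytic pool 1, 10 with 0.01 without WT phagocytic pool 4, 12 with 0.07 without WT non-phagocytic pool 3, and 20 with 0.82 without WT non-phagocytic pool 4. Leaving out WT phagocytic pool 3 or 5 or WT non-phagocytic pool 1 or 5 also moved the median by more than 1.5 times, to between 0.07 and 0.39. In Apoe-/-, 19 of 20 with 0.20 became 10 with 0.01 without Apoe-/- phagocytic pool 1, and the median lay between 0.10 and 0.37 without Apoe-/- phagocytic pool 3 or 6 or Apoe-/- non-phagocytic pool 2, 3, 5 or 6. When the fit held each library's satellite-like share, the median was 0.37 with 20 of 20 positive in Apoe-/- and 0.30 with 20 of 20 positive in WT cells, and without Apoe-/- non-phagocytic pools 2 and 5 it was 0.52 with 20 of 20 positive in Apoe-/- cells. Opn1sw was the one gene with an unadjusted p below 0.05 in the WT sort, where 7.74% of all genes were, at -3.89 ± 1.39 and an edgeR adjusted p of 0.415. Its level there was 0.928 ± 1.44 CPM in WT phagocytic and 14.3 ± 25.5 CPM in WT non-phagocytic libraries, the second carried by pool 4. The 5 cone genes tested other than Gngt2 were all lower in Apoe-/- phagocytic than in Apoe-/- non-phagocytic libraries, with log2 fold changes between -2.60 ± 1.39 for Gnat2 and -0.53 ± 0.59 for Pde6h, and none passed the test. Whether the sort acted differently in the genotypes was tested as an interaction: 14 of 30 genes were positive (48.5% of all genes), the median was -0.01, 0 were called by edgeR, against 0% of all genes, and 0 had an unadjusted p below 0.05 (2.42% of all genes). For the 20 rod and shared genes the interaction had a median of 0.01 with 10 positive, and this ran from 1 positive with -0.56 without WT non-phagocytic pool 4 to 18 positive with 0.32 without WT phagocytic pool 1. It was 0.07 with 15 positive when the fit held the satellite-like share, and 0.32 with 19 positive without Apoe-/- non-phagocytic pools 2 and 5.

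**Figure D5:**
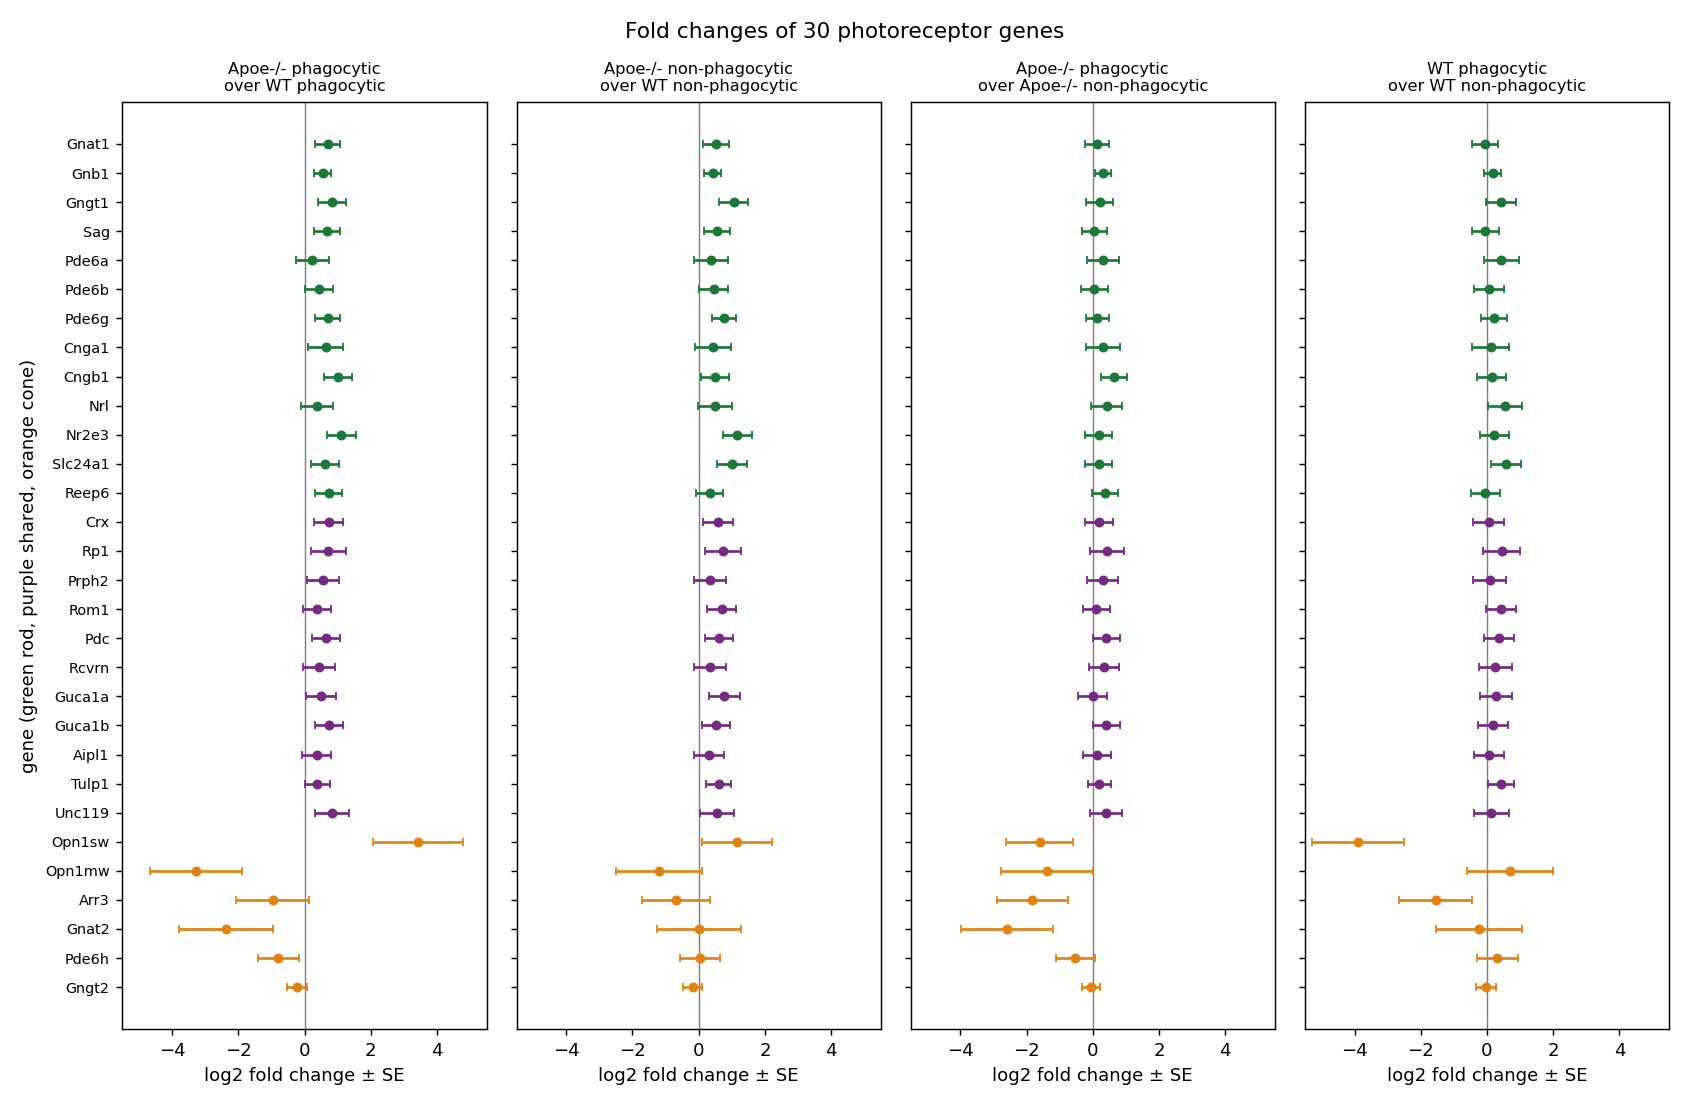
Log2 fold changes ± SE of the 30 genes that passed the filter, for Apoe-/- over WT in each sort (left pair of panels) and phagocytic over non-phagocytic in each genotype (right pair). Rod and shared genes lie right of 0 in both genotype panels (median 0.65 and 0.54 for 20 of them). In the sort panels most of them lie right of 0 too, by less (median 0.20 in Apoe-/- and 0.22 in WT for the same 20). Cone genes scatter with wide errors.

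Photoreceptor genes outside the set were present alongside it. A list of 28 other photoreceptor genes summed to 364 to 1791 CPM per library, led by Rbp3 (222 CPM on average), the retinoid carrier between photoreceptors and pigment epithelium, Mef2c (157 CPM on average), which microglia also express, Cdhr1 (55.4 CPM on average), an outer segment cadherin, and Grk1 (54.7 CPM on average), the opsin kinase. Of the list, 25 passed the filter, and 0 were called by edgeR in any of the 5 comparisons. In Apoe-/- against WT libraries 20 of 25 were positive among phagocytic (median log2 fold change 0.42) and 20 of 25 among non-phagocytic libraries (median 0.41). Phagocytic against non-phagocytic, 15 of 25 were positive in Apoe-/- (median 0.21) and 19 of 25 in WT (median 0.22).

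Markers of the remaining retinal cells were far lower than the rod genes, which summed to 1044 to 5491 CPM. Bipolar markers, 12 genes led by Otx2 (7.44 CPM on average), Prkca (6.86), Trpm1 (3.92) and Nyx (3.44), summed to 11.6 to 53.4 CPM. Amacrine and horizontal markers, 9 genes led by Calb1 (14.4 CPM on average), Slc6a9 (5.87), Tfap2a (3.78) and Tfap2b (3.04), summed to 15.3 to 89.9 CPM, and ganglion cell markers, 11 genes led by Thy1 (20.4), Rbpms (15.2), Nefl (6.32) and Nefm (2.50), to 29.2 to 105 CPM. Pigment epithelium markers, 8 genes led by Best1 (8.63), Rdh5 (6.11), Ttr (5.54) and Rgr (3.18), summed to 7.59 to 50.7 CPM. Müller glia markers without Apoe, 9 genes, reached 195 to 672 CPM, but Vim (195 CPM on average) and Glul (119) made up most of this and are read in other cells too, with Slc1a3 (15.5) and Kcnj10 (5.86) after them, while Rlbp1, a defining Müller gene, averaged 3.49 CPM and was at 0 in 4 libraries. None of these genes was called by edgeR in any of the 5 comparisons. Some of them had positive fold changes beside the rod genes in Apoe-/- over WT libraries. Rgr, a retinal opsin of pigment epithelium and Müller glia, averaged 5.20 ± 3.81 CPM in Apoe-/- phagocytic and 0.175 ± 0.239 CPM in WT phagocytic libraries, groups that did not overlap, with a log2 fold change of 4.56 ± 1.11 and an edgeR adjusted p of 0.257. In non-phagocytic cells Rgr averaged 5.77 ± 4.75 CPM in Apoe-/- and 0.656 ± 0.773 CPM in WT libraries, with a log2 fold change of 2.94 ± 0.96 and an edgeR adjusted p of 0.999. Ttr, a thyroid hormone carrier made by pigment epithelium, averaged 9.85 ± 11.3 CPM in Apoe-/- phagocytic and 0.749 ± 1.14 CPM in WT phagocytic libraries (log2 fold change 3.51 ± 1.36). Slc1a3, the glutamate transporter of Müller glia, averaged 21.6 ± 8.69 CPM in Apoe-/- phagocytic and 8.18 ± 5.06 CPM in WT phagocytic libraries (log2 fold change 1.41 ± 0.44, edgeR adjusted p 0.447). Others on the same 2 lists had lower means in Apoe-/- than in WT phagocytic libraries. Vim averaged 148 ± 39.4 CPM in Apoe-/- phagocytic and 355 ± 174 CPM in WT phagocytic libraries. Best1 averaged 6.95 ± 3.85 against 10.5 ± 4.02 CPM, and Rdh5 5.11 ± 6.39 against 7.02 ± 3.38 CPM. The summed Müller glia markers averaged 310 ± 45.7 CPM in Apoe-/- phagocytic and 515 ± 163 CPM in WT phagocytic libraries. These genes were named after their values were seen. Of the pigment epithelium list, 4 of 8 genes passed the filter, with 2 positive and a median of 1.54 in phagocytic libraries, and 4 positive and a median of 0.54 in non-phagocytic libraries. Of the Müller glia list, 6 genes passed the filter, with 3 positive and a median of -0.04 in phagocytic libraries, and 4 positive and a median of 0.26 in non-phagocytic libraries. The part of these cells in the photoreceptor values was not tested. The injected cells were neurons. Pan-neuronal markers, 12 genes led by Syt1 (28.9), Snap25 (22.6) and Map2 (8.72), summed to 13.8 to 167 CPM. A list of 7 genes of cortical and other forebrain neurons summed to 5.57 to 37.0 CPM. It was led by Slc17a7 (7.59), Camk2a (3.09), Tbr1 (1.47) and Neurod6 (1.47). Pan-neuronal genes and Slc17a7 are read in retinal neurons too, and how much of either sum came from injected cells was not tested. Endothelial markers, 5 genes led by Pecam1 (25.9), which leukocytes share, Flt1 (4.90), Kdr (3.32) and Cdh5 (0.707), summed to 12.3 to 89.1 CPM. These lists differ in length and in how strongly their genes are read in their own cells, so their sums do not give numbers of cells.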

How the data were processed

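RNA of sorted retinal microglia was sequenced as SMART-Seq2 libraries, per the labels' protocols, and the authors deposited 1 transcript table per library with estimated counts and TPM (length-normalised transcript abundance), per the file headers. The submitters' processing notes name Salmon 1.4.0, R 4.0.3, DESeq2 1.30.1 and mm10. The sources used here do not give the strand setting or the annotation release. The deposited estimated counts were summed to genes with GENCODE M21 (116072 of 116248 transcript IDs matched, the rest holding 0.118% to 0.262% of reads) and rounded. Gene TPM are sums of the deposited transcript TPM. CPM use TMM-scaled library sizes.

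All 22 libraries and 4 groups entered 1 edgeR 4.0.16 quasi-likelihood fit (R 4.3.3, filterByExpr, Benjamini-Hochberg adjustment at 0.05), which tested 12415 of 35596 genes with a biological coefficient of variation of 0.426. The 5 comparisons were Apoe-/- against WT in each sort, phagocytic against non-phagocytic in each genotype, and their interaction. Tested on simulated data for the WT sort (12136 genes), the fit recovered 98 of 100 genes changed 4-fold and 100 of 100 changed 8-fold, with 11 false calls. The changes were put only into genes above the median level, and noise was drawn for each gene separately. Recovery of smaller changes, of low genes or of genes that move together was not tested. Depth was 1131045 to 3643499 reads per library.

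The members and gene lists were chosen with earlier results of these data known. All 31 members are given: those that passed the filter or averaged at least 1 CPM with their value in every library (the lowest, median and highest in groups of 6), and from every other list up to 4 genes by mean CPM, of which some are not reported here. Alternatives were DESeq2 1.42.0, RLE size factors, limma 3.58.1 on log2(TPM + 1), no filter, the compared groups alone, a replicate block, removal of or adjustment for satellite-like reads, and leaving out libraries.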

Additional observations from a re-analysis of the deposited data

Results flagged for a closer look

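Each member was looked at in each group for a highest or lowest library set apart from the rest by a gap that takes up most of the group's range (Dixon's test at its 95% critical value). Of 124 sets of a gene and a group, 28 stood out, always by the highest library. Chance flags about 1 in 20 such sets only where the values are normally distributed. CPM cannot fall below 0, and some sets hold mainly values of 0, such as Opn1mw in Apoe-/- phagocytic libraries. The 1 in 20 rate therefore need not hold here, and the count of flags is a description. The genes also share libraries, so these are not 28 separate observations.

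Of the 28, 21 were WT non-phagocytic pool 4. Among rod genes it had 1473 CPM of Gnat1, 776 CPM of Gnb1, 688 CPM of Sag, 96.5 CPM of Pde6a, 83.5 CPM of Cngb1 and 75.9 CPM of Slc24a1. Among shared genes it had 517 CPM of Prph2, 261 CPM of Rom1, 188 CPM of Guca1b, 124 CPM of Aipl1, 118 CPM of Pdc, 118 CPM of Rcvrn, 112 CPM of Tulp1, 103 CPM of Guca1a, 94.3 CPM of Crx, 50.96 CPM of Rp1 and 34.2 CPM of Unc119. Among cone genes it had 59.6 CPM of Opn1sw, 40.1 CPM of Pde6h, 30.9 CPM of Opn1mw and 30.4 CPM of Gnat2. The next highest WT non-phagocytic library had 574 CPM of Gnat1 and 2.24 CPM of Gnat2. This pool also had the lowest summed level of microglial markers, 7402 CPM; whether the 2 are linked was not tested.

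In Apoe-/- phagocytic pool 1, Opn1mw at 5.23 CPM and Arr3 at 6.61 CPM stood apart. In Apoe-/- non-phagocytic pool 5, Opn1sw was at 131 CPM, against 32.4 CPM in the next library of its group. In WT phagocytic pool 1, Opn1mw was at 47.6 CPM and Gnat2 at 28.5 CPM. WT phagocytic pool 4 had 56.5 CPM of Unc119, and WT phagocytic pool 3 had 3.43 CPM of Opn1sw, a gene near its floor in that group.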

How the results depend on the processing

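No member was called in any comparison under any alternative, except Opn1sw with no filter on low counts, where 1 member was called in Apoe-/- over WT phagocytic libraries (log2 fold change 3.43, edgeR adjusted p 0.00626) and 1 in the WT sort (-3.85, edgeR adjusted p 0.000669). Over the other alternatives 0 members were called, DESeq2 included. A log2 fold change is said to turn only where it was larger than its SE. That of Opn1sw between Apoe-/- and WT non-phagocytic libraries turned to -0.14, against 1.148 in the full data, without Apoe-/- non-phagocytic pools 2 and 5, the libraries richest in satellite-like reads. Leaving out 1 library at a time, it lay between -0.30 and 3.49 (-0.30 without Apoe-/- non-phagocytic pool 5). The interaction of Opn1sw lay between -0.068 (without WT non-phagocytic pool 4) and 3.72. Gnat2 lay between -3.45 and 4.25 in Apoe-/- over WT phagocytic libraries, and its interaction between -5.21 and 4.24, with both upper ends without WT phagocytic pool 1.

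Without satellite-like genes the mean sums in Apoe-/- non-phagocytic libraries were 3864 CPM (rod) and 1375 CPM (shared). Without Gngt2 the cone sums were 25.5 CPM in Apoe-/- phagocytic, 43.4 CPM in WT phagocytic and 55.5 CPM in WT non-phagocytic libraries. On log2(TPM + 1), the median over all genes shifted to -0.19 (phagocytic) and -0.29 (non-phagocytic) for Apoe-/- over WT, and the 20 rod and shared genes had medians of 0.44 and 0.36.

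Equal pool numbers are not stated to pair libraries. Deviations of same-numbered libraries correlated at 0.0402 to 0.423, at or below 0.1 for 3 of 11 numbers. Of the 11 phagocytic libraries, 7 correlated best with their own number, among 5 (WT) or 6 (Apoe-/-) non-phagocytic libraries to match. Shared animals are thus neither shown nor excluded, and the main fit takes the libraries as unpaired. With the number as a replicate block, 0 members were called, and all-gene calls were 7 (Apoe-/- over WT, phagocytic), 2 (non-phagocytic), 255 (Apoe-/- sort), 135 (WT sort) and 0 (interaction), against 4, 2, 58, 26 and 0 without it. For Apoe-/- over WT the block also tied WT and Apoe-/- pools of the same number. These come from different mice, and the labels state no such pairing. In that fit 18 and 14 of the 30 members had an unadjusted edgeR p below 0.05 in phagocytic and non-phagocytic cells, against 5 and 3 without the block. Over all 12415 genes these counts were 813 and 515, against 822 and 472 without it. The medians of the 20 rod and shared genes in the blocked fit were 0.86 and 0.83. In the Apoe-/- sort their median was 0.12 under the block. With DESeq2 the all-gene calls were in the same order 24, 2, 165, 102 and 2, with no filter 96, 16, 137, 122 and 17, and over the remaining alternatives 2 to 9, 2, 15 to 93, 20 to 72 and 0. Leaving out 1 library gave 3 to 23 (23 without Apoe-/- phagocytic pool 1), 2, 18 to 89, 13 to 64 and 0. At this depth, cone genes rest on few reads in most libraries, and their fold changes follow single libraries. The causes of these moves were not tested.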
